A study of Ascaris suum with 9 samples.

Results

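RNA sequencing of whole larvae of Ascaris suum, the large intestinal roundworm of pigs, singled out 85 of 17974 genes whose transcripts were higher with biochanin A and changed little with red clover extract. The 9 libraries form 3 groups of 3: larvae given control solvent, larvae given biochanin A at 100 µM and larvae given red clover extract at 200 µg/mL, all for 3 hours. The labels name neither the solvent nor the larval stage, and describe the tissue as the whole organism. The doses of pure compound and extract are not matched, and no source used here states how much biochanin A the extract held.

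The 85 genes were chosen by their measured levels, in CPM, the read count relative to the library total after scaling by the trimmed mean of M values. A member had a mean of at least 5 CPM with biochanin A and a log2 ratio of biochanin A to control of at least 0.8. Its log2 ratio of extract to control was below 0.4, with 0.5 CPM added to both means of each ratio. All 3 of its biochanin A libraries lay above all 6 others, and identifiers beginning AgE and the 150 genes most abundant in control were left out. The comparisons of both treatments with control, and of the treatments with each other, therefore went into the choice, so the levels and ratios of the members are a description and carry no test.

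Biochanin A is an isoflavone, the methyl ether of genistein, and is made by red clover and other legumes. In Caenorhabditis elegans, a free-living nematode, foreign small molecules raise transcripts for oxidising and conjugating enzymes and for export pumps, and regulators in the nucleus that sense such compounds switch these genes on. The count table pairs no identifier with a gene name or product, so none of the 85 genes can be assigned to such a role here, and markers of tissue, stage or RNA quality were not assessed. In whole larvae, a change in RNA per cell and a change in the number of cells that hold a transcript cannot be told apart.

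Library totals ran from 44324212 to 53786882 counts. The lowest count of any member in any library was 34, in control replicate 2, and no member had fewer than 211 counts in a biochanin A library. The extract libraries differed most among themselves: replicates 1 and 3 had a chi-square per degree of freedom of 124.1 over genes, against 17.1 to 49.7 for the other pairs within groups. The labels do not say if replicates were separate batches of larvae, and the spread between them may be technical. Together the 85 members took 0.20% to 0.212% of all counts in the control libraries, 0.348% to 0.352% in the biochanin A libraries and 0.221% to 0.239% in the extract libraries.

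Most genes that biochanin A raised strongly were higher with extract as well. Of 10211 eligible genes with at least 5 CPM, 479 reached the log2 ratio of 0.8, and in 349 of these every biochanin A library lay above all other libraries. The extract ratio of 264 of the 349 genes was 0.4 or more, and that of the remaining 85, the members, was below 0.4. Separation of the libraries removed only 2 genes that met all the ratio conditions. A further 2 genes met every condition but stood among the 150 most abundant in control: AgB01_g234, at a mean of 15336 CPM in control and 27639 CPM with biochanin A, and AgR006_g005, at 1528 and 3265 CPM. These 4 genes are not counted among the members. Which genes meet the rule depends on how libraries are scaled. Scaling by their totals shifts the log2 fold changes of all tested genes by a median of -0.20 for biochanin A and -0.15 for extract; 42 genes then met the rule, 21 of them members.

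**Figure D1:**
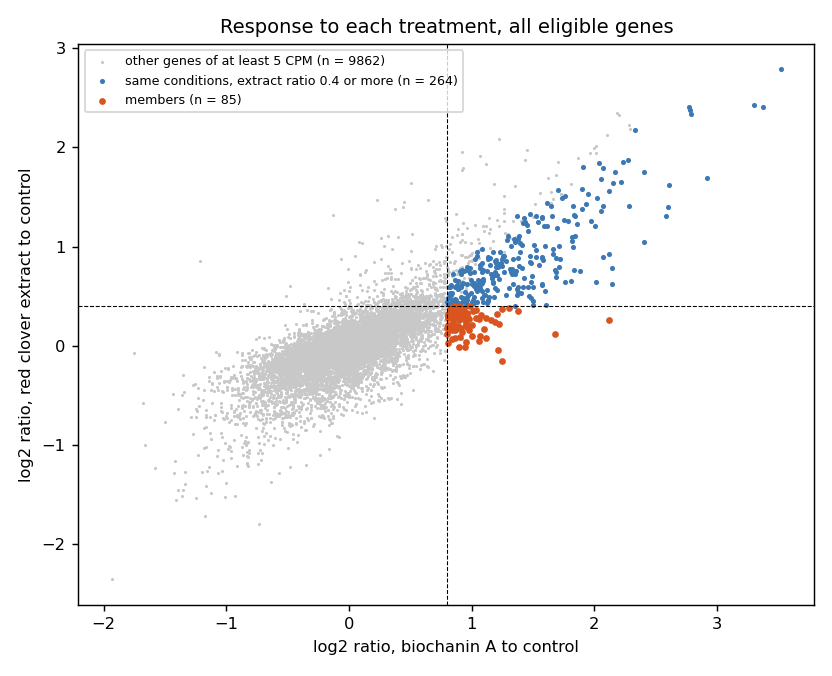
Log2 ratio of biochanin A to control (x axis) against log2 ratio of extract to control (y axis) for the 10211 eligible genes of at least 5 CPM, 1 point per gene, with dashed lines at the limits of 0.8 and 0.4. The 85 members (orange) fill the corner below the 264 genes (blue) that meet the same conditions with a higher extract ratio, and both ratios share the 3 control libraries.

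The typical member was about 1.9 times as abundant with biochanin A as in control. The fold over control had a median of 1.94 and ran from 1.76 to 5.67, and the log2 ratio had a median of 0.91, with 23 members at 1 or more and 62 below 1. Among the 264 genes that the extract raised as well, the median log2 ratio was 1.31. Over all 15177 tested genes it was -0.01. In edgeR's quasi-likelihood test 84 of the 85 members were called higher with biochanin A than in control at an adjusted p below 0.05, beside 16.9% of all tested genes. The rule used this contrast, so nothing is read from the count. The member without a call, AgB03_g501, had 3.83, 3.08 and 1.08 CPM in control and 4.63, 5.40 and 5.11 CPM with biochanin A.

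The members covered a wide range of abundance, and most were transcripts of modest level. Their means with biochanin A ran from 5.05 to 471.5 CPM with a median of 16.2 CPM. Of the 85, 22 stayed below 10 CPM with biochanin A, 39 lay between 10 and 50 CPM, and 24 reached 50 CPM, of which 8 reached 100 CPM. In control the median was 8.38 CPM, against 20.9 CPM for the 264 genes with a higher extract ratio and 19.3 CPM for all tested genes.

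The gap between biochanin A and the other libraries was wide in some members and narrow in others. The lowest biochanin A library stood 1.03 to 2.58 times above the highest control or extract library, with a median of 1.34. This quotient was at least 1.5 in 23 members, at least 1.2 in 70 and below 1.1 in 6. The narrowest gap belonged to AgR006_g105, with 6.91, 6.12 and 11.4 CPM in the biochanin A libraries, 5.15, 3.88 and 4.12 CPM in control and 5.93, 5.86 and 5.59 CPM with extract. Biochanin A replicate 3 stood well above the other two, which were just over the extract libraries.

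**Figure D2:**
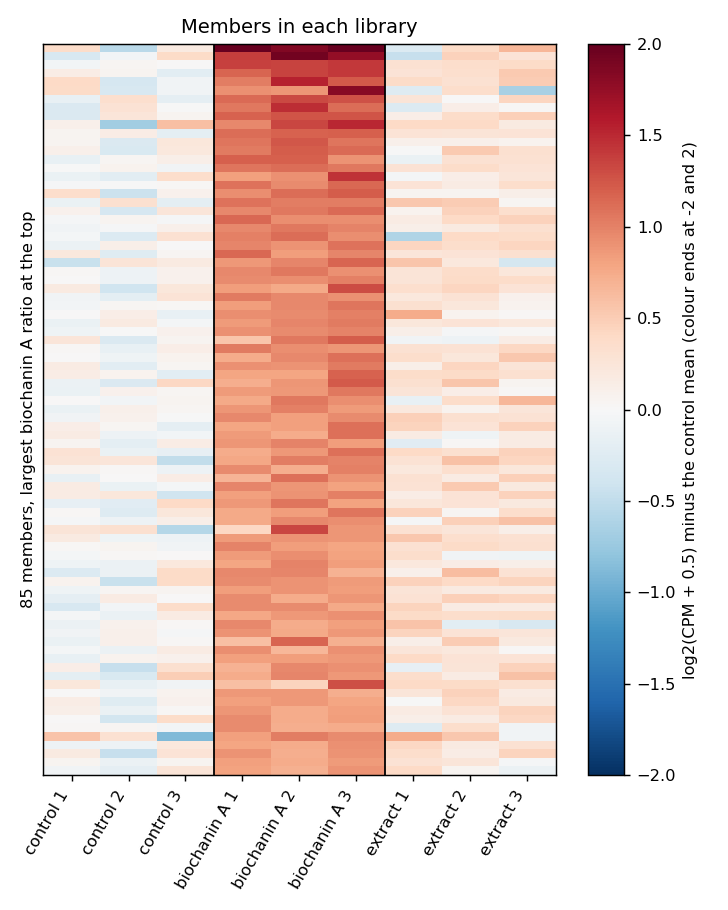
Each row is 1 of the 85 members, ordered by the biochanin A ratio, and each column is 1 library; colour gives log2(CPM + 0.5) minus the mean of the control libraries. The median over members was 0.91 to 0.98 in the 3 biochanin A libraries and 0.26 to 0.29 in the 3 extract libraries.

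AgB14_g065 had the largest ratio. Its levels were 1.72, 0.68 and 1.45 CPM in the 3 control libraries, 8.08, 5.72 and 8.02 CPM with biochanin A and 0.93, 1.74 and 2.22 CPM with extract. The control and extract libraries overlapped, and the lowest biochanin A library was 2.58 times as high as the highest of the other 6. The fold of biochanin A over control was 5.67, on few counts in control.

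AgR050_g033 came next, with a log2 ratio of 1.68. It stood at 1.38, 1.74 and 2.54 CPM in control and at 5.6, 8.45 and 7.42 CPM with biochanin A. With extract it had 1.2, 2.74 and 2.31 CPM, which spans the range of the control libraries.

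AgB02_g203 combined a large ratio with a high level and tight replicates. Control libraries held 49.4, 52.5 and 51.6 CPM, biochanin A libraries 132.9, 131.0 and 137.6 CPM, and extract libraries 63.3, 65.2 and 66.9 CPM. All 3 groups were apart, with extract close to control. Its fold over control was 2.62 with biochanin A and 1.27 with extract.

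AgB11_g082 and AgB13X_g073 were low in control, and their means with extract lay between control and biochanin A. AgB11_g082 averaged 3.90 ± 0.54 CPM in control, 10.4 ± 0.9 CPM with biochanin A and 5.21 ± 0.52 CPM with red clover extract (SD, n = 3 each). AgB13X_g073 averaged 3.19 ± 0.98, 8.25 ± 1.58 and 4.27 ± 0.33 CPM in the same order. Their extract log2 ratios of 0.38 and 0.37 put both near the limit of 0.4.

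AgR002_g222 was the least even of the large responders. Its biochanin A libraries held 8.43, 8.29 and 16.3 CPM, its control libraries 5.69, 3.32 and 4.05 CPM, and its extract libraries 3.48, 5.57 and 2.53 CPM. Biochanin A replicate 3 was close to the sum of the other two, while extract and control overlapped. Its extract log2 ratio, -0.15, was the lowest of all members, but the fitted fold change against control turned positive without control replicate 1 (0.07) or without extract replicate 3 (0.06).

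The most abundant member was AgB05_g131. It had 260.4, 267.5 and 244.4 CPM in control, 511.4, 459.5 and 443.7 CPM with biochanin A and 316.5, 334.7 and 322.5 CPM with extract. The groups did not overlap, and extract lay between the other two, at 1.26 times control, against 1.83 times with biochanin A. AgR011_g065 followed with 139.6 ± 16.0 CPM in control, 256.3 ± 4.7 CPM with biochanin A and 183.3 ± 16.6 CPM with extract.

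**Figure D3:**
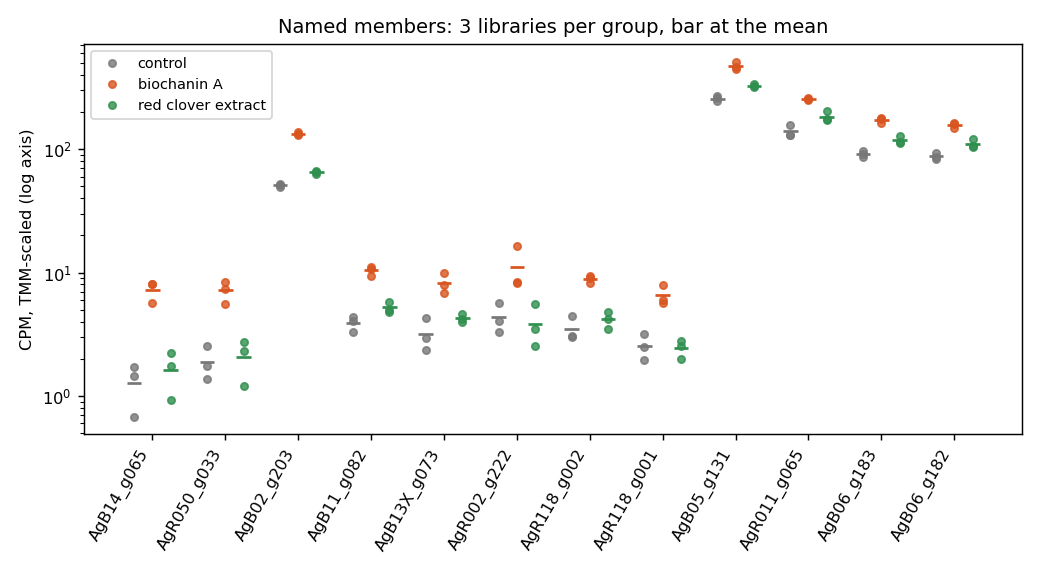
Levels of the 8 members with the largest biochanin A ratio and the 4 with the highest biochanin A level, in scaled CPM on a log axis; points are the 3 libraries of each group and bars their means. In each of these genes the 3 biochanin A libraries lie above all control and extract libraries, from 2.58 times above for AgB14_g065 to 1.23 times above for AgB06_g182.

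With extract, nearly all members sat slightly above control. The rule bounds this ratio from above but not from below, and 81 of the 85 means were higher with extract than in control and 4 were lower. The fold of extract over control ran from 0.887 to 1.35, with a median of 1.22. The log2 ratio had a median of 0.28 over members, of 0.76 over the 264 genes with a higher extract ratio and of -0.01 over all tested genes. Both ratios of a gene share the same control libraries, and a low control value raises both, so the count of 81 is not free of the rule.

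Expressed as a share of the biochanin A rise, the extract level of the members lay between -7.40% and 39.1% of the way from control to biochanin A, with a median of 21.3%. In 50 members it covered less than 25% of the way. The same share had a median of 49.6% among the 264 genes with a higher extract ratio, which the rule separates by construction.

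The calls for extract against control are given as a description, because the rule bounded this ratio and chose genes on the same control libraries. In 36 of the 85 members all extract libraries lay above all control libraries, beside 14.9% of all tested genes, and in the other 49 the 2 groups overlapped. edgeR called 19 members higher with extract than in control, beside 9.34% of all tested genes, and nothing is read from the count. The 19 included the abundant members AgB05_g131, AgR011_g065, AgB06_g183 and AgB06_g182 and, among the largest responders, AgB02_g203. The count of 19 rests on the settings. It was 12 without control replicate 1, 11 when extract and control alone were fitted and 9 at an adjusted p below 0.01. With scaling by library totals it was 5 of the 85 members, beside 4.9% of all tested genes. For the other settings the share of all tested genes is not given here. With edgeR 0 members were lower with extract than control at an adjusted p below 0.05, and 0 at an unadjusted p below 0.05; with DESeq2 the counts were 0 and 0. Of all tested genes edgeR called 8% lower with extract; the members were chosen on these same control libraries, and a low control value raises both of their ratios.

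Between the treatments, 72 of the 85 members were called lower with extract than with biochanin A, beside 7.39% of all tested genes; the rule used this contrast through the separation of the libraries. The fitted log2 difference had a median of -0.70 and ran from -2.15 to -0.48. The 72 genes divide into 53 without a call for extract against control and 19 called higher with extract than control as well. For the other 13 members the fit called neither the extract against control nor the extract against biochanin A.

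The members at the low end of the extract ratio stayed at the control level. AgR118_g001 had 1.96, 3.16 and 2.48 CPM in control, 1.98, 2.80 and 2.53 CPM with extract and 5.70, 7.87 and 6.01 CPM with biochanin A. AgR044_g019 had 7.66, 5.18 and 6.68 CPM in control, 6.11, 5.96 and 7.20 CPM with extract and 9.70, 13.9 and 15.5 CPM with biochanin A. In both genes the extract libraries fell inside the control range. The sign of their small extract difference changed when single control or extract libraries were left out.

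The limits of the rule cut through a continuous range of ratios. The members just inside the biochanin A limit were AgB06_g187, AgR021X_g171 and AgR046_g073, with log2 ratios of 0.80 to 0.81. Just outside it stood AgR006_g368, AgR003_g078 and AgR101X_g002, at 0.80, 0.80 and 0.78, which met every other condition. AgR101X_g002 was abundant and clearly separated, with 240.4 ± 8.5 CPM in control, 414.3 ± 19.0 CPM with biochanin A and 231.0 ± 2.6 CPM with extract (SD, n = 3 each). At the extract limit, AgB02_g184, AgR153_g001 and AgR013X_g204 lay just inside at 0.40, and AgR011_g054, AgR002_g167 and AgR004_g202 just outside at 0.40 to 0.41. AgR013X_g204 illustrates this edge: its control libraries held 56.1, 66.2 and 60.7 CPM, its extract libraries 81.9, 77.4 and 82.0 CPM and its biochanin A libraries 120.3, 114.0 and 129.3 CPM, so that all groups were apart.

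Some members carried neighbouring numbers. Among the 85, 12 form 6 pairs whose identifiers share a prefix and differ by 1 in the last number, and the rule did not use the identifier in this way. The labels do not explain the numbering, and reads of overlapping genes cannot be told apart in these counts. The 6 pairs are AgB02_g172 with AgB02_g173, AgB05_g131 with AgB05_g132, AgB06_g182 with AgB06_g183, AgR008_g271 with AgR008_g272, AgR044_g019 with AgR044_g020, and AgR118_g001 with AgR118_g002. With scaling by library totals only 2 genes of the set chosen anew stood in such a pair.

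AgB06_g182 and AgB06_g183 moved almost as 1 transcript. The first held 83.5, 93.7 and 86.3 CPM in control and 164.2, 148.1 and 160.6 CPM with biochanin A. The second held 87.0, 96.6 and 90.6 CPM in control and 179.2, 161.7 and 175.8 CPM with biochanin A. Their quotient stayed between 0.914 and 0.970 in all 9 libraries.

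The other pairs differed more in level between partners. AgB05_g131 was 3.60 to 4.42 times as abundant as AgB05_g132, and AgB02_g172 was 3.07 to 4.70 times as abundant as AgB02_g173. In the pair AgR044_g019 and AgR044_g020 neither gene differed from control with extract by more than the spread between libraries: AgR044_g020 averaged 38.3 ± 9.99 CPM in control, 80.2 ± 7.6 CPM with biochanin A and 39.5 ± 0.8 CPM with extract. Such quotients compare counts that are not divided by transcript length.

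Most genes on either side of a pair had smaller ratios. Of 8 tested genes numbered next to the pairs, 6 had a log2 ratio of biochanin A to control between -0.27 and 0.06. Among these 6, AgR118_g003 was close to the floor of detection, so its ratio rests on few counts. It had 0.27 ± 0.31 CPM in control and 0.19 ± 0.15 CPM with biochanin A. Next to AgB05_g131 and AgB05_g132, AgB05_g130 stood at -0.22 and AgB05_g133 at -0.27. AgR008_g270, next to AgR008_g271, was one of the other two, at 401.3 ± 8.5 CPM in control, 683.8 ± 5.7 CPM with biochanin A and 606.2 ± 40.7 CPM with extract, so both treatments lay above control. The other, AgR044_g021, was close to the floor of detection, at 0.16 ± 0.24 CPM in control and 0.52 ± 0.61 CPM with biochanin A.

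Over all members, the genes numbered directly next to them were called higher with biochanin A more often than tested genes in general. Of 134 such neighbours that were tested and are not members themselves, 39 were called higher with biochanin A than in control (29.1%, beside 16.9% of all tested genes) and 16 lower (11.9%, beside 18.3%). With extract, 20 of the 134 were called higher than in control (14.9%, beside 9.34%). This count was 13 without control replicate 1, 12 without extract replicate 2 and 11 with scaling by library totals. With totals, 4.9% of all tested genes were called higher with extract. At a difference of 2, 3, 4 and 5 in the number, 17.4%, 14%, 15.3% and 14.5% were called higher with biochanin A than in control. For extract against control the shares were 10.9%, 8.39%, 8.76% and 9.16% in the same order. Lower levels with extract than with biochanin A were called for 14.2% of the direct neighbours, beside 7.39% of all tested genes, and for 6.99% to 7.63% at a difference of 2 to 5. The neighbours had a median of 15.9 CPM in control, against 19.3 CPM for all tested genes. The excess was not tested, since neighbouring genes are not independent of each other. With scaling by library totals 28 of the direct neighbours were called higher with biochanin A, beside 8.89% of all tested genes.

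**Figure D4:**
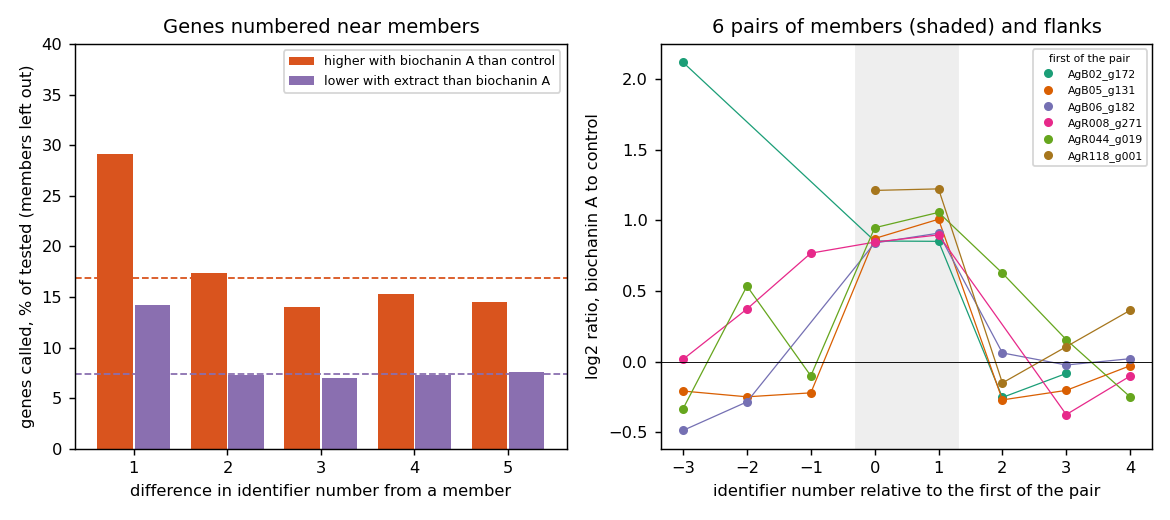
Left, percent of tested genes called higher with biochanin A than control (orange) or lower with extract than biochanin A (purple) by their difference in identifier number from a member, members left out, with dashed lines at 16.9% and 7.39% for all tested genes. Right, log2 ratio of biochanin A to control for the 6 pairs of members (shaded) and the tested genes numbered around them; direct neighbours on the left reach 29.1% and 14.2%.

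With 1 library left out of the choice, that library placed most of the chosen genes in the same order. The libraries it was set against took part in the choice, so this is a description and carries no test. When the rule was applied without 1 biochanin A library, it chose 93, 100 and 87 genes for replicates 1, 2 and 3. The library left out lay above all 6 control and extract libraries in 93.5%, 94.0% and 97.7% of the genes chosen, beside 23.1%, 22.7% and 24.5% of all eligible genes of at least 5 CPM. The median log2 ratio to control in the library left out was 0.85, 0.87 and 0.90, against 0.95, 0.92 and 0.90 in the 2 libraries that chose the genes. The control libraries were the same in both, and the scaling factors came from all 9 libraries.

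Extract libraries were left out in turn in the same way. The library left out lay below all biochanin A libraries in 96.6%, 100% and 97.6% of the 87, 83 and 85 genes chosen without replicates 1, 2 and 3, beside 37.0%, 33.7% and 35.6% of all eligible genes of at least 5 CPM. The biochanin A libraries set beside it had been chosen to lie above the rest. Its median log2 ratio to control was 0.29, 0.30 and 0.31, against 0.29, 0.24 and 0.25 in the extract libraries that took part in the choice. Control libraries were below all biochanin A libraries in 100%, 100% and 96.6% of the genes chosen without them, beside 39.3%, 39.0% and 39.4% of all eligible genes. There too the biochanin A libraries had been chosen to lie above the rest. The genes chosen changed more: 62, 56 and 63 members were chosen again without control replicates 1, 2 and 3, against 73 to 77 without any other library.

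Within groups, some libraries were more often the lowest or highest among members than among all genes. Control replicate 2 was the lowest control library in 41 of the 85 members (48.2%, against 35.6% of all tested genes), and control replicate 3 the highest in 39 (45.9%, against 34.8%). Biochanin A replicate 1 was the lowest of its group in 40 members (47.1%, against 31.4%), and biochanin A replicate 3 the highest in 36 (42.4%, against 35.6%). Their part in the choice of members was not tested. The SD of log2 CPM within a group had a median over members of 0.18 in control, 0.11 in the biochanin A group and 0.14 in the extract group, against 0.16, 0.13 and 0.13 over all tested genes. Separation of the biochanin A libraries was a condition of the rule, so a small spread there is partly set by it.

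By identifier, the 85 members were spread over 45 of the 350 prefixes in the table. A single member stood on 24 of these prefixes, and the most on 1 prefix was 5, on each of AgB02, AgB05 and AgB06. Identifiers beginning AgB without an X made up 40% of the members and 27.0% of the eligible genes of at least 5 CPM. Those beginning AgR without an X made up 47.1% and 52.2%, those of AgR with an X 7.06% and 15.1%, and those of AgB with an X 5.88% and 5.66%. The labels do not explain these classes, and the differences were not tested.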

How the data were processed

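The values deposited by the authors are raw counts of reads per gene, as whole numbers that were not normalized, with 1 column for each of the 9 libraries. RNA was taken from whole larvae with TRIZOL, per the labels' protocols. The submitters' processing notes list DESeq2 without a role or version, and no source used here gives the aligner, the counting tool or the strandedness. Columns were matched through library names, and 0 columns lacked a sample.

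The rule was applied to CPM of all genes with TMM factors. Tests were run over all genes in 1 model of the 3 groups with edgeR 4.0.16 (R 4.3.3): filterByExpr, which left 15177 of 17974 genes, TMM on these, robust quasi-likelihood F test, Benjamini-Hochberg adjustment and a threshold of 0.05. TMM factors before and after the filter differ slightly, so fitted fold changes and CPM ratios can too. All 85 members passed the filter, but the rule sets a minimum level, so this says nothing further. The workflow was tested on simulated data. Replicates differed by more than counting noise, so all were kept.

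The members, the gene lists and the choice of what to describe were made with earlier results of these data known, including changes of consecutively numbered genes. Lists by product name could not be used, since identifiers have no names here. Named genes are the 8 largest biochanin A ratios, the 4 highest biochanin A levels, 3 genes on each side of both limits, the 3 lowest extract ratios and the members with consecutive numbers. AgB03_g501, AgR006_g105, AgR008_g270, AgR044_g021, AgR118_g003, AgB05_g130, AgB05_g133, AgB01_g234 and AgR006_g005 were picked after their values were seen. Alternatives were other scalings, DESeq2 1.42.0, other limits, no filter, a replicate block and leaving out each library.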

Additional observations from a re-analysis of the deposited data

How the results depend on the processing

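The number of genes meeting the rule was 42 with scaling by library totals (21 of them members), 23 with a biochanin A limit of 1, 26 and 233 with an extract limit of 0.2 and 0.8, 147 with a minimum of 1 CPM, and 75 to 100 without 1 library; limits change it by construction. With library totals, 2 genes of the set chosen anew had consecutive identifiers in place of 12. The mean share of counts on the set in the biochanin A libraries was 0.265% with totals and 0.353% with DESeq2 size factors, in place of 0.351%. Calls for extract against control numbered 5 with totals, 11 with a fit of 2 groups, 9 at an adjusted p below 0.01 and 12 to 19 without 1 library, in place of 19. With totals, 4.9% of all tested genes were called higher with extract. The calls for biochanin A against control (82 to 85 without 1 library) and between the treatments (55 to 76) stayed within 1.5 times under every alternative run. The rule used both comparisons, so nothing is read from this. The median member log2 fold change with totals was 0.74 for biochanin A, 0.14 for extract and -0.65 between the treatments, in place of 0.94, 0.28 and -0.70. Without 1 library it was 0.92 to 1.02, 0.24 to 0.31 and -0.73 to -0.68. The counts of direct neighbours, with alternatives added after the data were seen, without 1 library were 31 to 40 with biochanin A, 12 to 19 with extract and 14 to 21 between the treatments, in place of 39, 20 and 19. At an adjusted p below 0.01, 12 neighbours were called for extract and 10 between the treatments, and with totals 11 for extract. With a replicate block, 85, 18 and 72 members were called for biochanin A, extract and between the treatments, and the medians were 0.96, 0.29 and -0.70. For settings other than library totals the share of all tested genes is not given here. Nothing about members or neighbours is read from the counts under those settings. Correlations of deviations were -0.07 to 0.07 between libraries of the same number and -0.08 to 0.12 between those of different numbers. The labels do not describe the replicates, so these values cannot decide if libraries were paired. Of 675 values of named genes under alternatives, 49 moved by more than their standard error and 15 had another sign, all 15 for extract against control and without a call (AgB06_g187, AgR002_g222, AgR003_g078, AgR006_g368, AgR044_g019, AgR050_g033 and AgR118_g001). Of the 477 values of called differences, 0 changed sign. The rule set the sign of both comparisons with biochanin A in the named members, so nothing is read from this count. At library totals of 44324212 to 53786882 counts, the members of low level rest on the fewest counts.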
